A study of Mus musculus with 20 samples.

Results

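The hair shaft and inner root sheath genes of mouse skin were taken as every gene with a Krtap symbol together with a fixed list of hair and root sheath keratins, Tchh, Padi3 and the regulators Msx2, Hoxc13 and Foxn1. The deposited skin libraries held 80 genes that the rule names, 58 of them Krtap genes, and 78 (56 of them Krtap genes) reached a CPM of 1 (counts scaled to a common library total) in at least 3 skin libraries, out of 17818 genes that did so. Krtap13 and Krtap20-2 did not reach it, and Krt85 was not analysed here. The 78 genes kept were 10 hair keratins, 7 inner root sheath keratins, Tchh and Padi3, 56 keratin-associated protein (KAP) genes and the 3 regulators.

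The study sequenced total RNA, depleted of ribosomal RNA, from left hindlimb skin and muscle of wild-type C57BL/6J mice 70 days after 35 Gy of electrons or sham treatment. The electrons were delivered either as FLASH, at ultra-high dose rate, or in the conventional (CONV) modality. There were 3 sham, 4 FLASH and 3 CONV libraries a tissue, with skin in batch 1 and muscle in batch 2. The labels used here give no age, sex or hair cycle stage, and do not say whether libraries came from different animals. The p-values therefore reflect only how far these samples spread, and that spread may be technical.

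Mouse hair grows in cycles: the follicle makes a shaft during its growth phase (anagen), then regresses and rests before it starts again. The inner root sheath, which moulds and guides the shaft, is built from its own keratins and from trichohyalin, whose arginines are converted by Padi3 before the protein is cross-linked. In the shaft, hair keratins form filaments first, and KAPs then fill and cross-link the matrix between them, the high-sulfur and ultra-high-sulfur KAPs through cysteine and the high-glycine-tyrosine KAPs with other residues. Foxn1, Hoxc13 and Msx2 are transcription factors of the follicle, and their loss in mice leaves hair that is missing, brittle or lost in cycles.

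Skin libraries held 24396463 to 33250762 estimated counts. The 12 epidermis genes listed as a tissue check summed to between 6622 and 55462 CPM in the skin libraries, and 10 skeletal muscle genes ranged from 72.9 to 29520.3 CPM, with sham 1 (29394 CPM) and FLASH 2 (29520.3 CPM) far above the other 8, at most 3889 CPM. The file of sham 3 carried a FLASH library name and the file of FLASH 1 a sham library name, while groups here follow the record. The range, the spread and the test results are also given without these libraries.

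Most members lie in clusters of related genes (assembly GRCm38, GENCODE M21, counted from 1). Chromosome 11 carried 33 of them, type I keratins and KAPs, between 99315516 and 100096241, chromosome 16 carried 23 KAP genes between 88610705 and 89571183, and chromosome 15 carried 7 type II keratins between 101459061 and 101802346. The promoters of 9 genes, the most abundant member with a RefSeq promoter in each class other than the regulators, are shown here because the members had nearly the same order of libraries, as the values per library show. Each line gives the 70 bases before the RefSeq start, 5′ to 3′ on the gene's strand, from RefSeq on GRCm38.p6, with TATAAA in capitals where it occurs.

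Krt25: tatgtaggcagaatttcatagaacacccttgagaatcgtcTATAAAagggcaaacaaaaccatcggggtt
Krt71: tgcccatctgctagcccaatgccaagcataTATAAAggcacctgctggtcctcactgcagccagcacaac
Tchh: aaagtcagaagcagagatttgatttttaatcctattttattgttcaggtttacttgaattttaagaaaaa
Krt31: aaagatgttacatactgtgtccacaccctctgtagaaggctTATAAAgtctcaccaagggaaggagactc
Krt84: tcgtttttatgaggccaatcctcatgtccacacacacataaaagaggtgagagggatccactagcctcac
Krtap3-1: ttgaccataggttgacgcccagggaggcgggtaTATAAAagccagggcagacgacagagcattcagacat
Krtap4-1: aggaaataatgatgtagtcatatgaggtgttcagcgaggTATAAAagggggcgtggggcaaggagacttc
Krtap8-1: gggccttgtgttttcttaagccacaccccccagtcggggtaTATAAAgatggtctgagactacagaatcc
Krtap16-3: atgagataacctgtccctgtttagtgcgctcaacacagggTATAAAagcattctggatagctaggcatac

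These stretches lie at chr11:99322952-99323021 (Krt25, minus strand), chr15:101743098-101743167 (Krt71, minus), chr3:93442260-93442329 (Tchh, plus), chr11:100050552-100050621 (Krt31, minus), chr15:101532821-101532890 (Krt84, minus), chr11:99566631-99566700 (Krtap3-1, minus), chr11:99628240-99628309 (Krtap4-1, minus), chr16:89487953-89488022 (Krtap8-1, minus) and chr16:88962874-88962943 (Krtap16-3, minus). RefSeq gave a promoter, 250 bases before to 50 after the start, for 65 of the 78 members. TATAAA, read on both strands, stood in 80% of these and in 14.2% of all 27025 promoters, a single promoter for each gene symbol. For a member the RefSeq start nearest to the GENCODE start was taken, and for the 27025 the promoter listed first for the symbol. On the gene's own strand, TATAAA began 40 to 20 bases before the start in 38 of 65 members (58.5%) and in 2.22% of all promoters. These were 38 of 61 keratin and KAP promoters, among them 12 of 16 of the ultra-high-sulfur and 5 of 13 of the high-glycine-tyrosine KAPs. The other 23, among them Krt84, the only type II hair keratin that had a promoter, had no such match in that window, nor had Tchh, Padi3, Msx2 and Foxn1. Some of the 23 had TATAAA just outside it, beginning at -47 in Krt33b, -44 in Krtap16-1 and -15 in Krt27. The RefSeq start matched a GENCODE transcript of the gene for 50 of the 65, so the class counts depend in part on where the start is placed. CTTTGA, letters bound by Lef1 and Tcf factors, occurred on either strand in 32.3% of member promoters and in 16.2% of all, GACGC, the core letters bound by Foxn1, in 9.23% and 27.4%, and CAATAAA or TCGTAAA, letters bound by posterior Hox proteins, in 3.08% and 5.43%. A match of letters is a description and not a binding site, and the clustered KAP genes share sequence with each other.

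The summed level of the 78 members differed by 396.7-fold between skin libraries, and the difference ran within groups. It was 50.1, 13601 and 1409.7 CPM in sham, 58.3, 492, 19856 and 12035 CPM in FLASH, and 17499.9, 874 and 7513 CPM in CONV, each list in the order of replicates, as in all later lists. These sums made up 0.00501% of the library in sham 1 and 1.99% in FLASH 3. Each group held low and high libraries, so all 3 groups overlapped: the means were 5020.2 ± 7462 CPM in sham (SD, n = 3), 8110.4 ± 9596 CPM in FLASH (n = 4) and 8629 ± 8369 CPM in CONV (n = 3). In bulk tissue, fewer follicle cells and less of these RNAs per cell cannot be told apart. With files assigned by library name, sham held 50.1, 58.3 and 13601 CPM and FLASH ran from 492 to 19856 CPM, and the groups overlapped as before. Without sham 1, sham 3, FLASH 1 and FLASH 2 together, the highest of the 6 libraries left was 22.7-fold above the lowest, CONV 2.

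**Figure D1:**
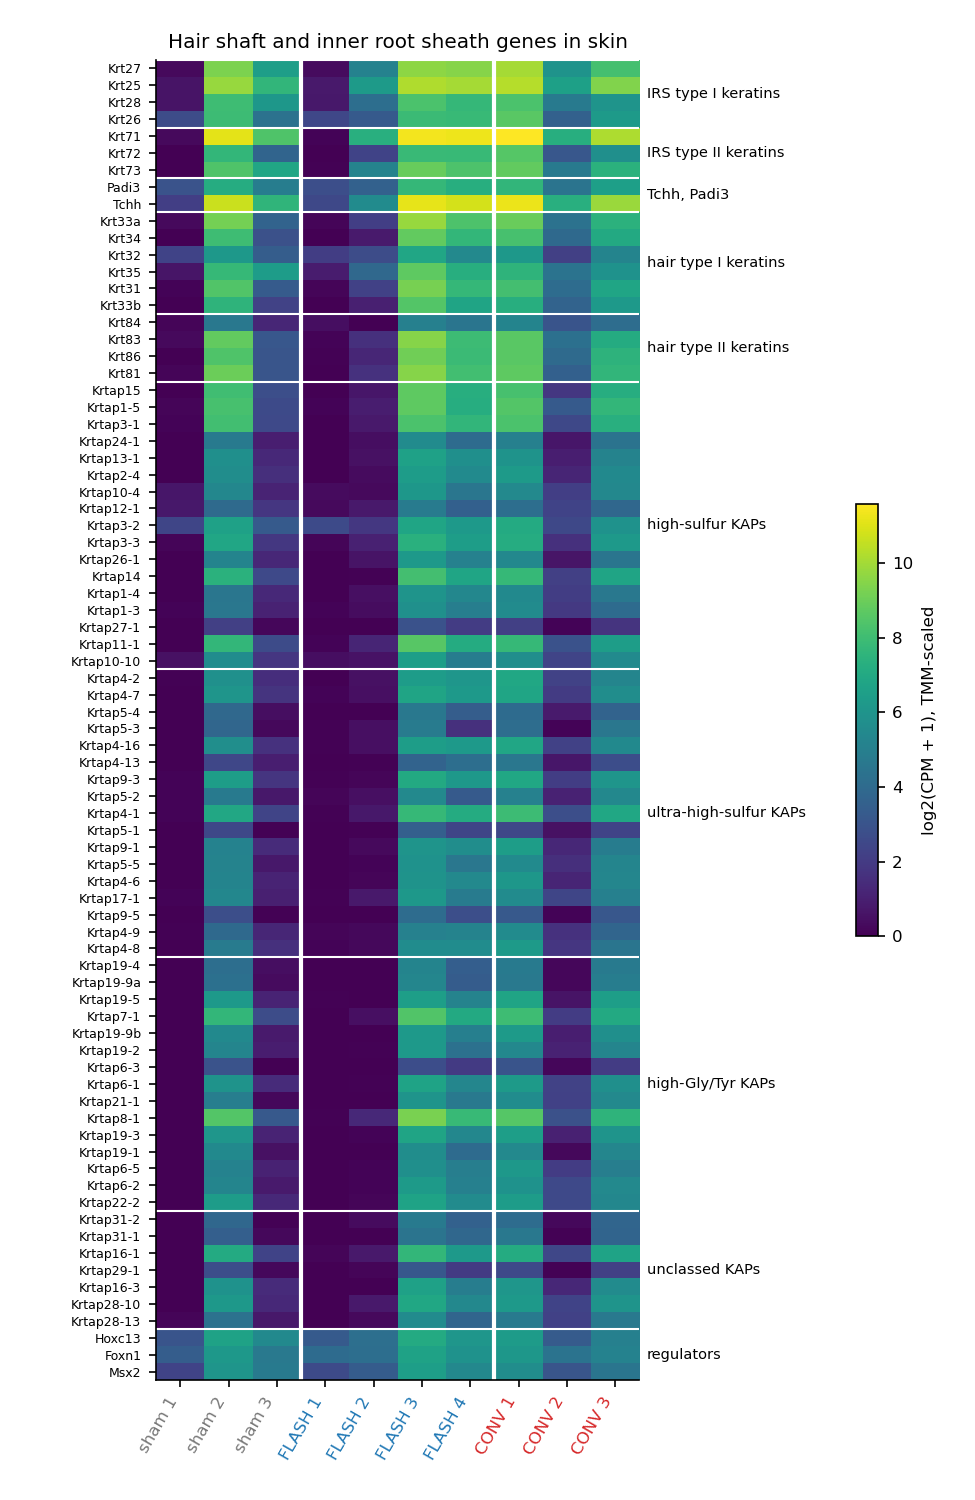
Level of each of the 78 members (rows, by class) in the 10 skin libraries (columns, by group), as log2 of TMM-scaled CPM plus 1, with brighter colours for higher levels. Sham 2, FLASH 3, FLASH 4, CONV 1 and CONV 3 are bright in nearly every row, and sham 1 and FLASH 1 are dark in nearly every row.

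Spread within groups was larger for these genes than for nearly any others in the skin. The SD of log2 CPM within groups had a median of 4.38 over the members and of 0.38 over all 20026 genes tested, and Krt71 had the largest value of all, 5.83. Among the 100 genes with the largest spread, 63 were members, and among the 500 largest, 75 were. Without the 2 libraries of disagreeing name the members' median was 4.37, and without sham 1 and FLASH 2 it was 4.24. Without all 4 it was 2.08, next to 0.35 over all genes, with 26 members among the 100 largest and 69 among the 500. The 3 regulators were the least variable class, at a median of 1.78, next to 4.75 for the inner root sheath keratins, 4.93 for the hair keratins and 4.37 for the KAPs.

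The members kept nearly the same order of libraries. In sham, replicate 2 was above 3 and 3 above 1 for 77 of 78 members, and in CONV replicate 1 was above 3 and 3 above 2 for 74. In FLASH, replicates 3 and 4 were above 1 and 2 for all 78, 3 was above 4 for 76, and 2 was above 1 for only 63. The highest skin library was FLASH 3 for 55 members and CONV 1 for 23. In 51 members at least 1 library had 0 counts, and 8 (Krt26, Krt32, Krtap3-2, Tchh, Padi3, Hoxc13, Foxn1 and Msx2) were at 1 CPM or more in all 10. In the 6 libraries other than sham 1, sham 3, FLASH 1 and FLASH 2, 0 members had a count of 0 and 60 were at 1 CPM or more in each. The order in sham, that of FLASH 3 and 4 above 1 and 2, and that of FLASH 2 above 1 rest on those 4 libraries.

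Krt71, an inner root sheath keratin, had the highest level per length of all members. Over the 10 libraries the mean was 1179 TPM, which corrects for transcript length as well as depth, for this type II keratin, 576 TPM for its type I partner Krt25 and 509 TPM for Krt27. Krt71 (chr15:101733949-101743109, minus strand) stood at 0.225, 2198 and 333 CPM in sham, 0.0659, 158, 2703 and 2525 CPM in FLASH, and 3096, 152 and 1137 CPM in CONV. Sham 1 and FLASH 1 had almost no Krt71, while sham 2, FLASH 3, FLASH 4, CONV 1 and CONV 3 were the 5 highest, so the groups overlapped. The means were 844 ± 1184 CPM in sham (SD, n = 3), 1347 ± 1467 in FLASH (n = 4) and 1462 ± 1498 in CONV (n = 3), and its log2 change was 0.79 ± 2.46 (SE) from sham to CONV, 0.67 ± 2.32 from sham to FLASH and -0.12 ± 2.28 from CONV to FLASH, with adjusted p-values of 0.866, 1.00 and 0.986 (edgeR's quasi-likelihood test). Krt25 (chr11:99315516-99322951, minus strand) stood at 0.525, 907 and 197 CPM in sham, 0.758, 77.98, 1197 and 1038 CPM in FLASH, and 1251, 95.8 and 667 CPM in CONV. Its 6 highest libraries came in the same order as for Krt71, the groups overlapped, and its log2 change was 0.87 ± 2.13 (SE) from sham to CONV, 0.65 ± 2.01 from sham to FLASH and -0.21 ± 1.97 from CONV to FLASH, with adjusted p-values of 0.829, 1.00 and 0.972 (edgeR's quasi-likelihood test). Krt73, a type II keratin of the sheath cuticle, ranged from 0 counts in sham 1 to 475 CPM in FLASH 3, and Krt72, of the same layer, from 0 counts in sham 1 and FLASH 1 to 377 CPM in CONV 1. A count of 0 allows up to 0.113 CPM in sham 1 (3 counts, counting error only).

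Trichohyalin and its modifying enzyme had the same low and high libraries. Tchh (chr3:93442330-93449077, plus strand) stood at 3.38, 1635 and 189 CPM in sham, 4.65, 47.8, 2329 and 1817 CPM in FLASH, and 2431, 158 and 937 CPM in CONV. Unlike Krt71 and Krt25 it stayed above 3 CPM in every library, with sham 1 and FLASH 1 lowest. The means were 609 ± 893 CPM in sham (SD, n = 3), 1049.6 ± 1200.2 in FLASH (n = 4) and 1175 ± 1155 in CONV (n = 3), and its log2 change was 0.95 ± 2.09 (SE) from sham to CONV, 0.78 ± 1.97 from sham to FLASH and -0.16 ± 1.93 from CONV to FLASH, with adjusted p-values of 0.808, 1.00 and 0.978 (edgeR's quasi-likelihood test). Padi3, the deiminase, stood at 6.72, 145 and 29.6 CPM in sham, 6.00, 11.3, 211 and 153 CPM in FLASH, and 197, 21.03 and 92.2 CPM in CONV. Its lowest and highest libraries differed less than those of Tchh, and its groups overlapped as well.

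Hair keratins of the shaft varied over a similar range. Krt33a (chr11:100011195-100016212, minus strand), a type I keratin of the hair cortex, had a mean of 334 TPM and stood at 0.225, 571 and 11.8 CPM in sham, 0.0989, 3.48, 908 and 330.5 CPM in FLASH, and 488, 19.8 and 172 CPM in CONV. FLASH 3 was the highest and sham 1 and FLASH 1 were below 1 CPM. Its means were 194 ± 326 CPM in sham (SD, n = 3), 311 ± 427 in FLASH (n = 4) and 227 ± 239 in CONV (n = 3), and its log2 change was 0.22 ± 2.52 (SE) from sham to CONV, 0.68 ± 2.39 from sham to FLASH and 0.45 ± 2.38 from CONV to FLASH, with adjusted p-values of 0.965, 1.00 and 0.949 (edgeR's quasi-likelihood test). Krt81 (chr15:101459061-101463751, minus strand), the most abundant type II hair keratin here, with a mean of 260.0 TPM, stood at 0.113, 505 and 7.31 CPM in sham, 0, 2.10, 711 and 271 CPM in FLASH, and 425, 10.6 and 196 CPM in CONV. It had the same order of libraries as Krt33a, and its log2 change was 0.30 ± 2.63 (SE) from sham to CONV, 0.53 ± 2.49 from sham to FLASH and 0.23 ± 2.47 from CONV to FLASH, with adjusted p-values of 0.955, 1.00 and 0.977 (edgeR's quasi-likelihood test). Of the 31-base words in its transcripts, 44.6% occur also in other genes (28.9% for Krt33a), so the division of reads between near-identical hair keratins is uncertain. Krt35, a type I keratin that appears low in the shaft, close to the matrix, stood at 0.600, 221 and 84.1 CPM in sham, 0.857, 13.9, 418 and 151 CPM in FLASH, and 186, 20.03 and 59.2 CPM in CONV. Its sham 3 level, 84.1 CPM, lay far nearer to that of sham 2 than did that of Krt33a.

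KAP genes, made late in the shaft, were 41 of the 46 members with 0 counts in sham 1, 36 of 40 in FLASH 1 and 12 of 13 in FLASH 2. They are 56 of all 78 members, and some were low in every library (Krtap6-3 at most 7.10 CPM), so these counts do not show an order in time. Krtap3-1 (chr11:99566027-99566630, minus strand), a high-sulfur KAP with a mean of 559.7 TPM, stood at 0.0750, 269 and 4.82 CPM in sham, 0, 0.712, 319.6 and 198 CPM in FLASH, and 313, 4.78 and 158 CPM in CONV. The 3 groups each held libraries under 5 CPM, and its log2 change was 0.79 ± 2.60 (SE) from sham to CONV, 0.50 ± 2.44 from sham to FLASH and -0.29 ± 2.41 from CONV to FLASH, with adjusted p-values of 0.874, 1.00 and 0.968 (edgeR's quasi-likelihood test). Krtap4-1 (chr11:99627224-99628238, minus strand), an ultra-high-sulfur KAP with a mean of 195 TPM, stood at 0.0750, 123 and 4.18 CPM in sham, 0.0330, 0.675, 217 and 142 CPM in FLASH, and 248, 5.97 and 119 CPM in CONV. CONV 1 was the highest library, the groups overlapped, and its log2 change was 1.55 ± 2.45 (SE) from sham to CONV, 1.08 ± 2.31 from sham to FLASH and -0.47 ± 2.23 from CONV to FLASH, with adjusted p-values of 0.733, 1.00 and 0.942 (edgeR's quasi-likelihood test).

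Among the high-glycine-tyrosine KAPs, Krtap8-1 (chr16:89487379-89487952, minus strand) led with a mean of 843 TPM, second per length among all members to Krt71. It stood at 0, 362 and 8.36 CPM in sham, 0.0330, 1.499, 611 and 225 CPM in FLASH, and 373, 6.44 and 186 CPM in CONV. FLASH 3 was the highest and sham 1 had no count, and its log2 change was 0.61 ± 2.64 (SE) from sham to CONV, 0.76 ± 2.50 from sham to FLASH and 0.15 ± 2.46 from CONV to FLASH, with adjusted p-values of 0.904, 1.00 and 0.983 (edgeR's quasi-likelihood test). None of its 31-base words occurs in another gene, so its counts do not rest on shared sequence. Krtap16-3 (chr16:88962273-88962873, minus strand), the most abundant of 7 KAPs with no class here, stood at 0, 59.7 and 1.66 CPM in sham, 0, 0, 98.5 and 29.1 CPM in FLASH, and 68.2, 1.42 and 47.01 CPM in CONV. The 3 libraries with 0 counts came from sham and FLASH, and its log2 change was 0.93 ± 2.52 (SE) from sham to CONV, 0.64 ± 2.37 from sham to FLASH and -0.29 ± 2.33 from CONV to FLASH, with adjusted p-values of 0.847, 1.00 and 0.968 (edgeR's quasi-likelihood test).

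**Figure D2:**
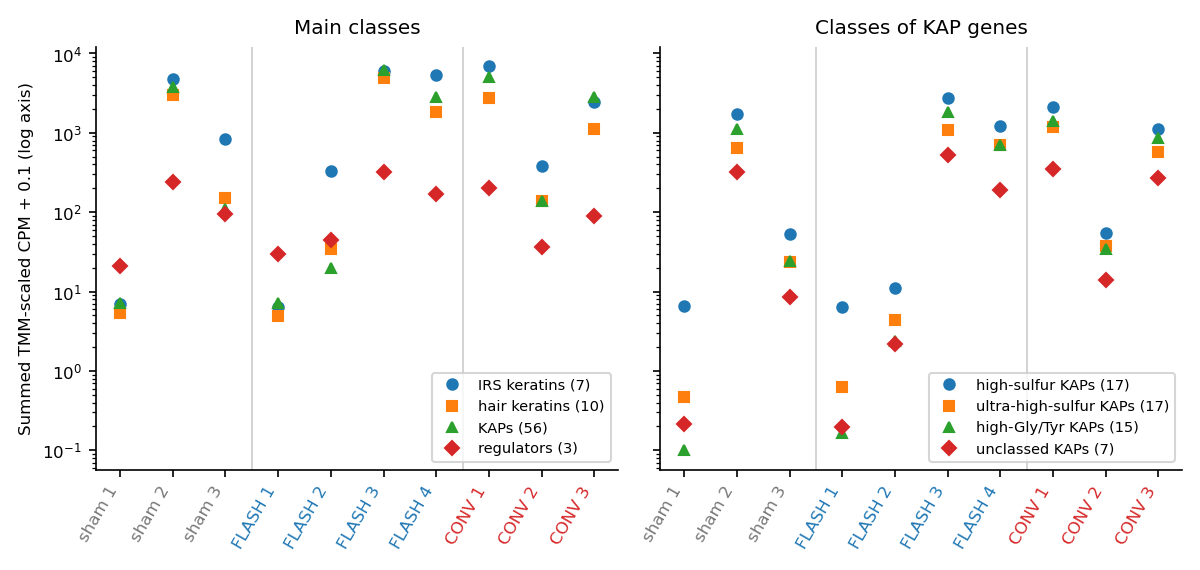
Summed TMM-scaled CPM (plus 0.1, log axis) of each class of members in the 10 skin libraries, main classes at left and classes of KAP genes at right, 1 point a library and class. KAPs run from 6.98 CPM in sham 1 to 6186 CPM in FLASH 3, and the regulators over a narrower range, from 20.7 to 325 CPM.

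The regulators varied less. Hoxc13 (chr15:102921103-102928814, plus strand), a homeobox factor needed for the shaft and its cuticle, stood at 7.05, 100.2 and 44.3 CPM in sham, 8.67, 18.1, 134 and 67.6 CPM in FLASH, and 81.7, 8.95 and 32.3 CPM in CONV. The lowest library was at 7.05 CPM, and its log2 change was -0.30 ± 1.17 (SE) from sham to CONV, 0.17 ± 1.10 from sham to FLASH and 0.48 ± 1.11 from CONV to FLASH, with adjusted p-values of 0.894, 1.00 and 0.874 (edgeR's quasi-likelihood test). Msx2 (chr13:53466884-53473074, minus strand), another homeobox factor of the matrix and shaft, stood at 4.05, 65.9 and 26.6 CPM in sham, 5.04, 9.22, 88.9 and 42.2 CPM in FLASH, and 49.9, 7.34 and 22.04 CPM in CONV. It had the same order of libraries as Hoxc13, and its log2 change was -0.28 ± 1.20 (SE) from sham to CONV, 0.17 ± 1.12 from sham to FLASH and 0.46 ± 1.13 from CONV to FLASH, with adjusted p-values of 0.902, 1.00 and 0.882 (edgeR's quasi-likelihood test). Foxn1 (chr11:78357577-78386558, minus strand), the gene mutated in nude mice, stood at 9.61, 72.5 and 24.7 CPM in sham, 15.8, 17.2, 103 and 59.2 CPM in FLASH, and 70.2, 20.5 and 34.00 CPM in CONV. All groups overlapped in it, and its log2 change was 0.22 ± 0.89 (SE) from sham to CONV, 0.45 ± 0.84 from sham to FLASH and 0.23 ± 0.83 from CONV to FLASH, with adjusted p-values of 0.897, 1.00 and 0.924 (edgeR's quasi-likelihood test).

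Shaft genes and sheath genes did not keep a fixed proportion. Summed KAP CPM was 79.7% of summed inner root sheath keratin CPM in sham 2, 104% in FLASH 3, 52.8% in FLASH 4, 72.9% in CONV 1 and 115% in CONV 3. It was 12.9% in sham 3, 5.90% in FLASH 2 and 36.7% in CONV 2, each resting on at least 527 KAP counts. These 3 libraries, 1 from each group, thus held sheath keratins with fewer KAPs for them than the 5 libraries above. For hair keratins this held in sham 3 and FLASH 2 only. Their sum was 17.8% of the sheath keratins in sham 3 and 10.1% in FLASH 2. In CONV 2 it was 36.1%, above FLASH 4 (34.5%) and near CONV 1 (39.4%). In sham 1 and FLASH 1 the ratio of KAPs to sheath keratins was 100.5% and 110.4%, but over 185 and 192 sheath keratin counts in all, most of them from Krt26.

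Ratios of single pairs of genes differed between libraries as well. Krt33a was 14.1% of Krt35 (both in CPM) in sham 3, 25% in FLASH 2 and 98.8% in CONV 2, and 217% to 291% in sham 2, FLASH 3, FLASH 4, CONV 1 and CONV 3. Krt72 was 10.5% of Krt73 in sham 3 and 11.5% in FLASH 2, and 30.7% to 85.1% in the 6 other libraries with over 300 Krt73 counts, where CONV 2 (30.7%) was close to CONV 3 (32.1%). CPM is not per length, so the ratios compare libraries and not the amounts of the genes. The libraries were described in this way after their values had been seen, and no test was made between them. Of these 3 libraries, sham 3 is one whose file name disagrees with its record and FLASH 2 is one high in skeletal muscle genes, while CONV 2 is neither.

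**Figure D3:**
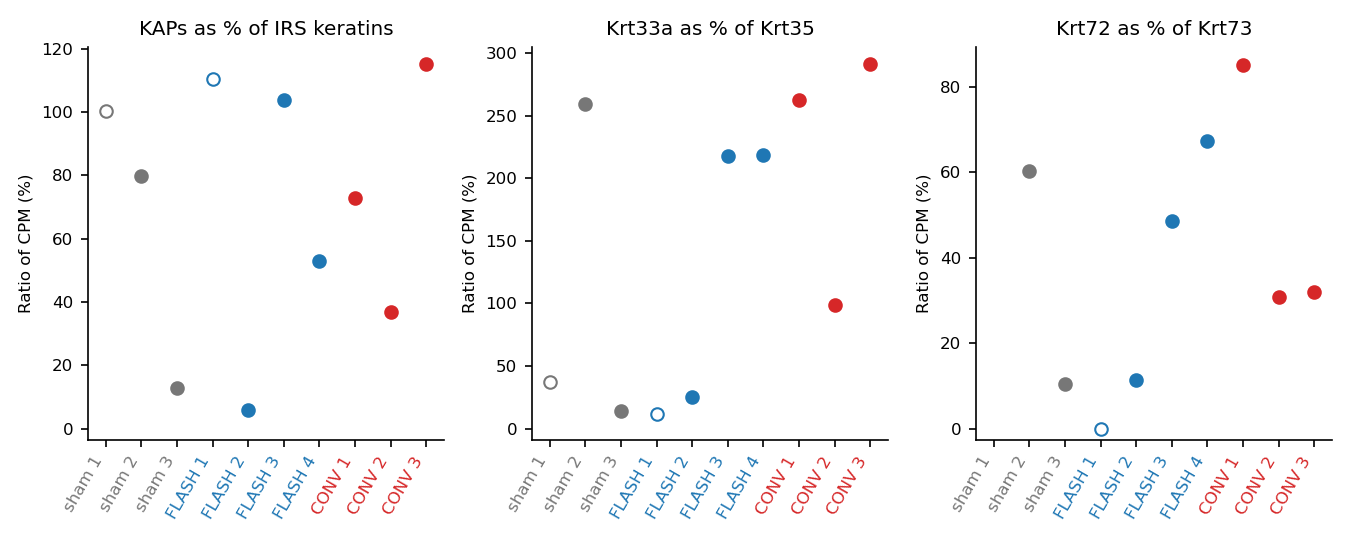
Ratios within each skin library, in percent of CPM: KAPs to inner root sheath keratins (left), Krt33a to Krt35 (middle) and Krt72 to Krt73 (right). Open points rest on fewer than 300 counts below the line and sham 1 has no Krt73 count. Sham 3 and FLASH 2 are low in all 3 panels, at 12.9% and 5.90% in the left one.

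The comparison of CONV with sham asks what conventional irradiation left behind after 70 days. No member passed an adjusted p of 0.05 in edgeR's quasi-likelihood test (0 of 78, with 0 of 20026 genes called, 0% in either direction, 0% higher and 0% lower), 0 had an unadjusted p under 0.05 (20.1% of all genes did), and DESeq2 called 0 members and 8.18% of all genes. The fitted log2 change was above 0 for 75 members and below for 3, with a median of 0.94 over the members and 0.01 over all genes. By class the median was 0.28 for type I hair keratins, 0.84 for type I and 0.79 for type II sheath keratins, 0.91 for high-sulfur, 1.53 for ultra-high-sulfur and 1.15 for high-glycine-tyrosine KAPs, and -0.28 for the regulators. The lowest adjusted p was 0.535, for Krtap4-13 (log2 change 2.40 ± 2.14), a gene that shares 89.8% of its 31-base words with others. In 0 members did all CONV libraries lie above, or all below, the sham libraries, whereas 13.6% of all genes lay above and 14.3% below. The median SE of a member was 2.36 on the log2 scale, next to 0.31 over all genes, and at that error a p above the threshold does not show that the groups were alike. The median rested on sham 2: it was 5.50 without that library and 0.21 without CONV 1, it was 0.36 without sham 1 and 0.45 without sham 3, and it was 0.45 without the 2 libraries of disagreeing name and 0.32 without sham 1 and FLASH 2. It was 1.03 with files assigned by library name and 2.65 in limma on log2(TPM + 0.5).

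FLASH against sham gave the same outcome. In edgeR 0 of 78 members were called (0% of all genes in either direction, 0% higher, 0% lower), 0 had an unadjusted p under 0.05 (0.659% of all genes did), and DESeq2 called 0 members and 0.0251% of all genes. The log2 change was above 0 for 77 members and below for 1, with a median of 0.77 over the members, 0.00 over all genes and a median member SE of 2.23. In 0 members did the groups separate, next to 0.829% of all genes with FLASH above and 0.739% with FLASH below. The median was 5.30 without sham 2, -0.53 without FLASH 3, 0.18 without sham 1, 0.28 without sham 3, and 1.18 without FLASH 1 or without FLASH 2. It was 0.69 without the 2 libraries of disagreeing name, 0.60 without sham 1 and FLASH 2, and 0.88 with files assigned by library name. This comparison and the previous one share the sham libraries. The lowest unadjusted p was 0.352, again for Krtap4-13 (log2 change 1.99 ± 2.03, adjusted p = 1.00).

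FLASH against CONV compares the dose rates directly. In edgeR 0 of 78 members were called (0% of all genes in either direction, 0% higher, 0% lower), 0 had an unadjusted p under 0.05 (12.7% of all genes did), and DESeq2 called 0 members and 2.29% of all genes. The log2 change was above 0 for 21 members and below for 57, with a median of -0.24 over the members, -0.01 over all genes and a median member SE of 2.18. All 6 type I hair keratins and the 3 regulators had values above 0, while 14 of 15 high-glycine-tyrosine and 15 of 17 ultra-high-sulfur KAPs had values below 0. None of these differences passed the test. In 0 members did the groups separate, next to 3.6% of all genes with FLASH above CONV and 4.73% with FLASH below. The median took the other sign without CONV 1 (0.70), without FLASH 1 (0.18) or FLASH 2 (0.16), without the 2 libraries of disagreeing name (0.18) and without sham 1 and FLASH 2 (0.22), and was -1.34 without FLASH 3 and -0.73 without CONV 2. It was -1.94 in limma on log2(TPM + 0.5), and FLASH and CONV here are the libraries of the 2 comparisons above.

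**Figure D4:**
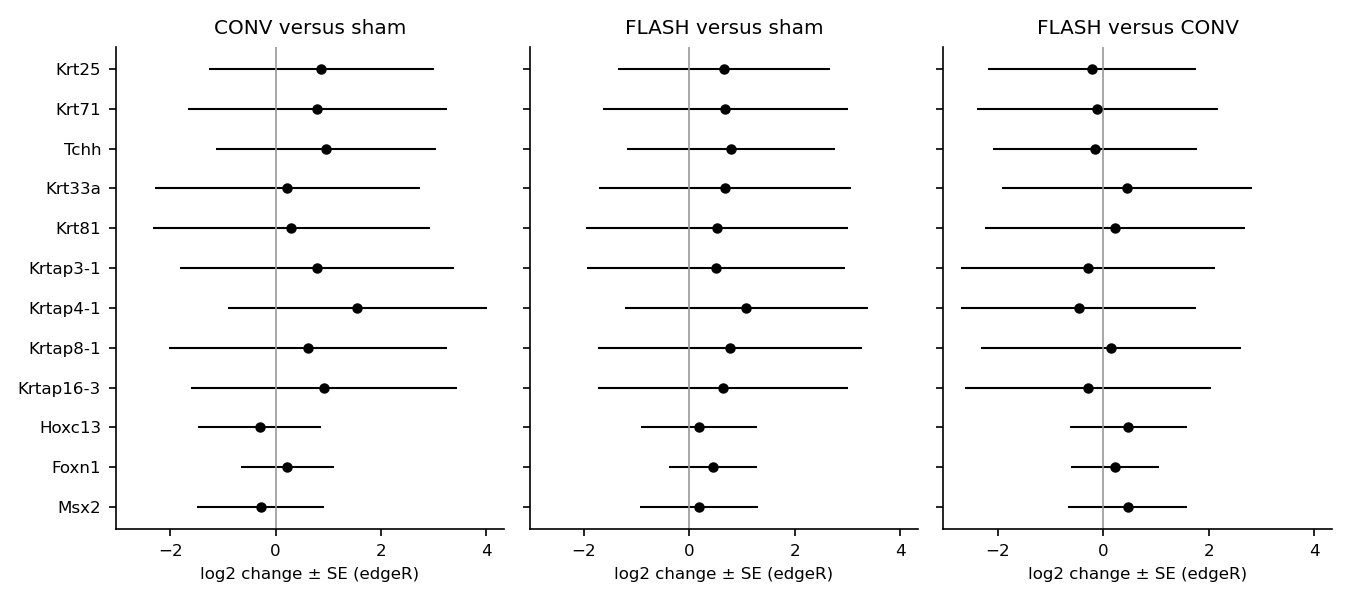
Fitted log2 change with its SE (edgeR) of the most abundant member of each class and the 3 regulators, in 3 comparisons of skin groups. Every SE bar crosses 0, and the SE of the 8 keratins and KAPs and of Tchh runs from 1.93 to 2.64, as for Krt71 from sham to CONV (0.79 ± 2.46).

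CONV against all other skin libraries is the same whichever way the disagreeing files are assigned. In edgeR 0 of 78 members were called, against 1.65% of all genes (1.58% higher and 0.0699% lower), 0 had an unadjusted p under 0.05 (23.4% of all genes did), and DESeq2 called 0 members and 10.4% of all genes. The log2 change was above 0 for 68 members and below for 10, with a median of 0.48 over the members, 0.00 over all genes and a median member SE of 1.84. Type I hair keratins had a median of -0.22 and regulators of -0.39, next to 0.75 for high-glycine-tyrosine KAPs. The log2 change was 0.37 ± 1.94 (SE) for Krt71, 0.46 ± 1.67 for Krt25, 0.45 ± 1.64 for Tchh, -0.20 ± 2.04 for Krt33a and -0.02 ± 2.11 for Krt81. For the KAP leaders it was 0.49 ± 2.03 (Krtap3-1), 0.84 ± 1.88 (Krtap4-1), 0.13 ± 2.10 (Krtap8-1) and 0.53 ± 1.96 (Krtap16-3), and for the regulators -0.40 ± 0.96 (Hoxc13), -0.39 ± 0.98 (Msx2) and -0.05 ± 0.72 (Foxn1). All 12 lay within 1 SE of 0. In 0 members did the groups separate, next to 3.85% of all genes with CONV above and 2.62% below. The median was -0.43 without CONV 1, 1.21 without FLASH 3, 1.02 without CONV 2, 0.75 without sham 2, and 0.26 to 0.28 without sham 1, sham 3, FLASH 1 or FLASH 2. It was 0.02 without the 2 libraries of disagreeing name and -0.05 without sham 1 and FLASH 2, and it was 2.25 in limma on log2(TPM + 0.5). The 331 genes called over all genes became 0 without any single sham library or without FLASH 1, FLASH 2 or FLASH 3.

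Other genes of the follicle varied with the members to different degrees. A list of 20 further shaft and sheath genes summed to 227, 1769.6 and 413 CPM in sham, 261, 277, 2493 and 1438 CPM in FLASH, and 2162, 412 and 842 CPM in CONV, highest in the same libraries as the members. Among them S100a3, a calcium-binding protein of the hair cuticle, stood at 3.04, 219 and 32.5 CPM in sham, 3.06, 10.98, 495 and 171 CPM in FLASH, and 221, 22.8 and 115 CPM in CONV. The 26 genes of matrix regulators (signals and factors of the hair bulb) summed to between 1682 and 3655 CPM, a far narrower range. Single genes of that list did not all follow the sum. Gata3, the most abundant by mean TPM, stood at 537 CPM in sham 1, 711 CPM in FLASH 1 and 409 CPM in FLASH 3. The ratio of the highest to the lowest library ran from 1.57 (Bmpr1a) to 38.5 (Dlx4), with a median of 4.43. For Lef1 it was 16.8. The 12 pigment genes summed to between 101 and 486 CPM, and here too single genes did not all follow the sum. Mitf, second in that list by mean TPM, was highest in sham 1 (82.2 CPM) and stood at 56.4 CPM in FLASH 3. Dct, an enzyme of melanin synthesis, stood at 13.4, 88.7 and 60.9 CPM in sham, 13.02, 21.5, 101 and 51.9 CPM in FLASH, and 60.6, 25.5 and 24.7 CPM in CONV. In sham 3 it reached 60.9 CPM where Krt33a was at 11.8 CPM. No gene of these 3 lists was called by edgeR in any of the 4 comparisons.

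Proliferation genes (12) summed to 307, 777 and 751 CPM in sham, 361, 400.5, 1081 and 847 CPM in FLASH, and 879, 802 and 644 CPM in CONV. Sham 1, FLASH 1 and FLASH 2 were the lowest, while sham 3 and CONV 2, both low in KAPs, were close to sham 2 and FLASH 4. Follicle stem cell genes (12) summed to 2930, 2570 and 2531 CPM in sham, 2920, 2772, 1734 and 1599 CPM in FLASH, and 1695, 1403 and 1216 CPM in CONV. In this sum sham 1 and FLASH 1, lowest in the members, were the highest, and every CONV sum lay below every sham sum. Among all genes, 14.3% had every CONV library below every sham library. Nfib (1160 CPM) and Krt15 (802 CPM) were the largest parts of the sham 1 sum, and single genes did not all follow it. The ratio of the highest to the lowest library ran from 1.44 (Lrig1) to 30.4 (Krt15), with a median of 2.61. From sham to CONV 10 of the 12 genes were lower. In edgeR's quasi-likelihood test 5 of the 12 had an unadjusted p under 0.05, next to 20.1% of all genes. Krt15, a keratin of the bulge and basal layer, stood at 802, 735 and 788 CPM in sham, 980.3, 903, 221 and 166 CPM in FLASH, and 220.4, 289 and 32.3 CPM in CONV. No gene of either list was called by edgeR in any comparison.

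Genes of other cell types also differed between libraries. Adipocyte genes (8) were highest in sham 1 and FLASH 1, at 1224 and 941 CPM, next to 116 to 461 CPM elsewhere, and these are the 2 libraries lowest in the members. Skeletal muscle genes were highest in sham 1 and FLASH 2. The sum of the epidermis genes was highest in CONV 2, at 55462 CPM, with Krt14 at 18385 CPM and Flg at 12603 CPM. Single epidermis genes did not all follow that sum. In CONV 2 Trp63 was at its lowest (355 CPM), and Krtdap stood at 381 CPM, next to 625 CPM in sham 3. Neutrophil genes (10) summed to 28.1, 25.3 and 23.4 CPM in sham, 29.7, 24.1, 26.6 and 129 CPM in FLASH, and 247, 859 and 1049.6 CPM in CONV, and 7 of 10 were called higher by edgeR in CONV against all other skin (1.58% of all genes were), the only calls of any list by edgeR in the 4 comparisons. Like all calls of that comparison, these were lost without any single sham library or without FLASH 1, FLASH 2 or FLASH 3. Whether any of these cell types had a part in the hair gene levels was not tested.

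**Figure D5:**
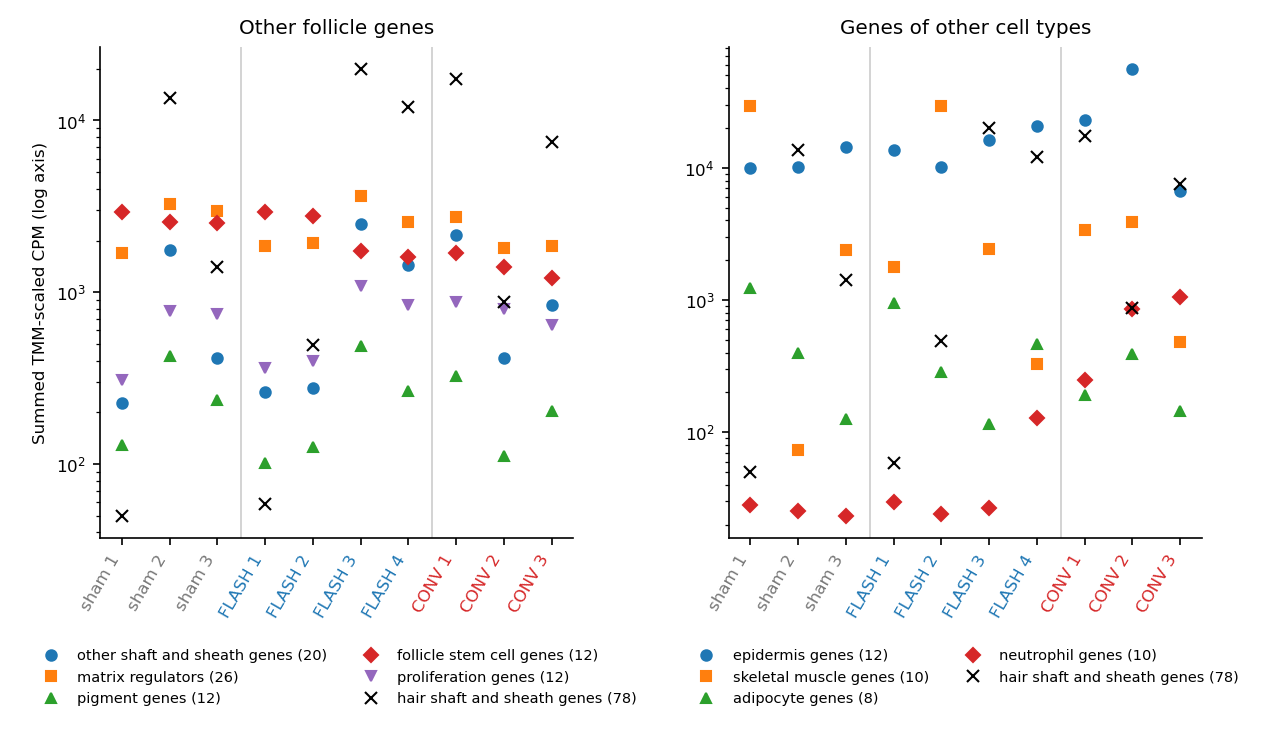
Summed TMM-scaled CPM (log axis) of 9 gene lists in the 10 skin libraries, other follicle genes at left and other cell types at right, with the 78 hair shaft and sheath genes as crosses in both. The crosses range from 50.1 to 19856 CPM while the sum of the matrix regulators, which single genes do not all follow, stays between 1682 and 3655 CPM.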

How the data were processed

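RNA was measured in 20 libraries from 2 tissues. The authors deposited, for each library, an estimated count and a TPM value for each of 116116 transcripts. They were made with kallisto 0.5.0 and the mm10 genome, per the submitters' processing notes; the annotation release is not given in the sources used here. The deposited estimated counts are not normalized, and the deposited TPM values correct for transcript length and depth. Transcripts were matched by identifier to GENCODE M21 (98.5% matched), and the unmatched ones, 0.873% to 1.85% of a skin library's counts, were left out. Counts were summed to 35579 genes and rounded.

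Totals were 24396463 to 33250762 counts in skin and 10198699 to 12336479 in muscle. Intervals and floors cover counting error only. No pair of libraries in a group agreed within sampling noise (chi-square per degree of freedom at least 8.53).

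Groups followed the record of each file. The 10 skin libraries were fitted together with edgeR 4.0.16 (quasi-likelihood, TMM, filterByExpr, R 4.3.3) across 20026 genes, with Benjamini-Hochberg adjustment over all of them and a threshold of 0.05. The SE is the log2 change divided by the square root of F. CPM in the text is TMM-scaled. DESeq2 1.42.0 and limma 3.58.1 on log2 TPM were alternatives, together with other scalings, filters, assignments, a replicate block and leaving out libraries. The scripts were tested on simulated data.

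KAP classes follow family numbers, and families 16 and from 28 up stayed unclassed. Full statistics are given for the member with the highest mean TPM in each class and for the regulators, values also for the next 2 of a class, and for up to 3 genes of another list by mean TPM. Krt35, outside this rule, and the libraries set apart in the shaft-to-sheath paragraphs were chosen after their values were seen. Also outside this rule are Lef1, Trp63, the genes at the ends of a list's range, and Krt5, Krt10 and Krt1 in muscle. Krtap4-13 had the lowest p. Members and lists were chosen with earlier results of these data known.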

Additional observations from a re-analysis of the deposited data

Results flagged for a closer look

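Muscle libraries, which the comparisons do not use, held few reads of the members. The files of 5 of the 10 carried the library name of another record, these being sham 2, sham 3, FLASH 1, FLASH 2 and FLASH 3, and groups here follow the record. The summed level was at most 2.28 CPM in sham. It was above that in FLASH 3 (2.69 CPM) and CONV 1 (2.47 CPM), by less than 1 CPM, and in FLASH 4 (123 CPM, 50 members detected) and CONV 3 (16.9 CPM, 30 detected). By library name the highest sham level was 2.69 CPM, and FLASH 4 and CONV 3 were the 2 libraries above it. In FLASH 4 the members reached 68.3 CPM for Tchh and 11.9 CPM for Krt71. The 12 epidermis genes summed to 15.5 CPM there, within the range of the 9 other muscle libraries (6.14 to 18.6 CPM). Of its keratins, Krt14 (2.67 CPM) and Krt5 (2.85 CPM) lay above the others (at most 0.513 and 0.427 CPM, both in CONV 3). Outside FLASH 4 and CONV 3, Krt14 was above 0 only in sham 3 (0.183 CPM), and Krt5 was at 0. Krt10 (0.980 CPM) lay within the range of the others, and Krt1 was at 0 in all 10. Of the 12 epidermis genes, 8 were detected in FLASH 4, 8 in CONV 3 and 4 to 6 in each other muscle library. The part of attached skin in these values was not tested.

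FLASH 4 stood apart from the 3 other FLASH muscle libraries. The gap to the nearest of them was 0.994 of the group's range for the summed members, 0.999 for Tchh, 1.00 for Krt71 and 0.988 for Krt25, above Dixon's 95% critical value for 4 samples. The names of the 3 other files disagree with their records, so the group is in doubt; in the 4 files with a FLASH library name the gaps were 0.995, 0.998, 1.00 and 1.00. These were 4 of 16 groups of values examined, and chance flags about 1 in 20. The 4 all rest on FLASH 4 and the sum contains the single genes, so they are not independent and cannot be set against that rate. Krt71 had 0 counts in the 3 other FLASH libraries, which fixes its gap at 1.00 whatever its level in FLASH 4. By library name the gaps of both Krt71 and Krt25 are fixed in the same way, since both had 0 counts in the 3 other files.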

How the results depend on the processing

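A total of 22 alternatives were run, the removal of sham 1 and FLASH 2 chosen after the data had been seen. The range of summed levels and the spread were also taken without these, without the 2 libraries of disagreeing name and without all 4, chosen likewise, and without all 4 the highest library was 22.7-fold above the lowest and the median SD was 2.08. In all of them 0 of 78 members were called in each of the 4 comparisons in which the setting could be fitted. CONV against all other skin has no fit by library name or with only 2 groups, since these leave it as it is. Leaving out 1 library at a time, the median log2 change of the members was 0.21 to 5.50 for CONV versus sham, -0.53 to 5.30 for FLASH versus sham, -1.34 to 0.70 for FLASH versus CONV and -0.43 to 1.21 for CONV versus all other skin. In limma the medians were 2.65 and 3.17, 0.58 and 0.63, -1.94 and -2.44, and 2.25 and 2.76, in that order of comparisons, on log2(TPM + 0.5) and log2(TPM + 0.1). As summed TPM, the members made up 2.53% in sham 2, 3.74% in FLASH 3 and 2.87% in CONV 1. Over all genes, DESeq2 called 1630, 5, 457 and 2078. CONV versus sham had 406 calls without CONV 1 and 89 without FLASH 4, and FLASH versus CONV had 117 without CONV 1. CONV versus all other skin had 105 calls with library totals, 41 and 32 in the 2 limma fits, 148 without CONV 2, 1 without CONV 3, 1319 without CONV 1 and 1454 without FLASH 4. The cause was not tested.

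The replicate numbers were not taken as pairs. Deviations from group means of same-numbered libraries correlated at -0.71 to 0.52 over 9 pairs, and of others at -0.69 to 0.67. Overlapping ranges of so few libraries cannot exclude a pairing. With the number as a block, the medians were 2.49, -0.84, -3.61 and 3.20, 0 members were called, and 15, 0, 1 and 1292 of all genes were.

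The log2 changes of the 12 class leaders and regulators, none past the threshold in any setting, took the other sign in 84 of 480 values when 1 library was left out and in 65 of 552 under the other settings. Under the replicate block, the change in CONV versus sham was 0.0333 for Hoxc13 and 0.13 for Msx2. The change in FLASH versus sham was -0.81 for Krt33a, -1.12 for Krt81, -0.73 for Tchh, -0.49 for Krt25, -0.42 for Krt71, -1.11 for Krtap8-1, -1.61 for Krtap3-1, -1.10 for Krtap4-1, -1.69 for Krtap16-3, -0.41 for Hoxc13 and -0.47 for Msx2. The change in FLASH versus CONV was -3.92 for Krt33a, -4.32 for Krt81, -4.30 for Krtap8-1, -0.44 for Hoxc13, -0.60 for Msx2 and -0.32 for Foxn1. The change in CONV versus all other skin was 3.55 for Krt33a, 3.86 for Krt81, 0.27 for Hoxc13, 0.39 for Msx2 and 0.38 for Foxn1. With files assigned by library name, the change in CONV versus sham was 0.0842 for Hoxc13 and 0.0784 for Msx2. Without the 2 libraries of disagreeing name, the change in CONV versus sham was -0.34 for Krt33a and -0.27 for Krt81. The change in FLASH versus CONV was 0.25 for Tchh, 0.20 for Krt25, 0.30 for Krt71, 0.12 for Krtap3-1 and 0.13 for Krtap16-3. The change in CONV versus all other skin was -0.0552 for Krt71 and -0.35 for Krtap8-1. Without sham 1 and FLASH 2, the libraries highest in skeletal muscle genes, the change in CONV versus sham was -0.41 for Krt33a, -0.33 for Krt81, -0.0195 for Krtap8-1 and -0.27 for Foxn1. The change in FLASH versus sham was -0.0334 for Hoxc13 and -0.0157 for Msx2. The change in FLASH versus CONV was 0.28 for Tchh, 0.20 for Krt25, 0.30 for Krt71, 0.17 for Krtap3-1 and 0.19 for Krtap16-3. The change in CONV versus all other skin was -0.0692 for Tchh, -0.0394 for Krt25, -0.13 for Krt71, -0.41 for Krtap8-1, -0.0454 for Krtap3-1 and -0.0137 for Krtap16-3. In limma on log2(TPM + 0.1), the change in FLASH versus sham was -0.31 for Krtap16-3. The change in FLASH versus CONV was -2.36 for Krt33a, -2.68 for Krt81 and -2.72 for Krtap8-1. The change in CONV versus all other skin was 2.66 for Krt33a, 2.90 for Krt81 and 0.0609 for Foxn1. In limma on log2(TPM + 0.5), the change in FLASH versus CONV was -1.99 for Krt33a, -2.06 for Krt81 and -2.38 for Krtap8-1. The change in CONV versus all other skin was 2.29 for Krt33a, 2.33 for Krt81 and 0.0533 for Foxn1. For CONV versus sham, leaving out 1 library at a time gave -1.02 to 5.23 for Krt33a, -0.73 to 5.82 for Krt81, -0.15 to 3.61 for Tchh, -0.39 to 3.13 for Krt71, -0.36 to 5.49 for Krtap8-1, -0.17 to 6.004 for Krtap3-1, -1.29 to 0.67 for Hoxc13, -1.13 to 0.79 for Msx2 and -0.39 to 1.28 for Foxn1. For FLASH versus sham, leaving out 1 library at a time gave -0.80 to 5.68 for Krt33a, -0.91 to 6.04 for Krt81, -0.71 to 5.64 for Krtap8-1, -0.47 to 5.71 for Krtap3-1, -1.07 to 5.24 for Krtap16-3, -0.68 to 1.15 for Hoxc13, -0.77 to 1.25 for Msx2 and -0.21 to 1.51 for Foxn1. For FLASH versus CONV, leaving out 1 library at a time gave -1.03 to 1.69 for Krt33a, -1.21 to 1.25 for Krt81, -0.92 to 0.94 for Tchh, -0.85 to 0.60 for Krt25, -0.71 to 1.06 for Krt71, -1.32 to 1.12 for Krtap8-1, -1.26 to 0.67 for Krtap3-1, -1.39 to 0.53 for Krtap4-1, -1.998 to 0.40 for Krtap16-3, -0.38 to 1.47 for Hoxc13, -0.49 to 1.30 for Msx2 and -0.44 to 0.84 for Foxn1. For CONV versus all other skin, leaving out 1 library at a time gave -1.44 to 0.57 for Krt33a, -1.05 to 0.68 for Krt81, -0.65 to 0.97 for Tchh, -0.36 to 0.97 for Krt25, -0.81 to 0.90 for Krt71, -0.84 to 0.92 for Krtap8-1, -0.48 to 1.05 for Krtap3-1, -0.16 to 1.47 for Krtap4-1, -0.16 to 1.36 for Krtap16-3, -1.39 to 0.0696 for Hoxc13, -1.23 to 0.0555 for Msx2 and -0.66 to 0.33 for Foxn1. The cause was not tested.

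At 24396463 to 33250762 counts a library, in sham 1 and FLASH 1, 46 and 40 members had 0 counts, so ratios there rest on few reads.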
